A study of Homo sapiens with 6 samples.

Results

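The snoRNA host noncoding genes are long noncoding RNA genes whose introns carry small nucleolar RNAs (snoRNAs), and their response to depletion of the splicing factor SRSF11 was examined in LoVo, an established line from a human colorectal cancer. Members were taken by name, as the rows of the count table named SNHG and a number or GAS5, ZFAS1 or DANCR. The rule reads gene names only, and it was proposed with earlier results of these data known. The rule found 28 of 58735 genes, of which 26 had at least 1 count and 22 of the 15801 tested genes passed the filter of at least 10 counts in at least 3 libraries. LoVo cells received a control siRNA (si-NC, 3 libraries) or an siRNA against SRSF11 (si-SRSF11, 3 libraries), and polyadenylated RNA was sequenced as paired-end reads. Both groups are of the same line, and the labels name no other treatment. Which SRSF11 siRNA was sequenced is not named. The study calls its RNA samples independent and paired but says neither how they were cultured nor which libraries form a pair, and the labels do not mention cultures, so p-values measure the spread between these libraries, which may be technical.

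A snoRNA host gene is transcribed and spliced like an mRNA. The snoRNA is trimmed out of the removed intron, and the joined exons leave the nucleus as a by-product or as an RNA with a role of its own. Box C/D snoRNAs guide 2′-O-methylation of ribosomal RNA and box H/ACA snoRNAs guide pseudouridylation, while scaRNAs do the same for the RNAs of the spliceosome in Cajal bodies. Ribosomes that read a short frame near the start of the joined exons stop ahead of later exon junctions, which makes many of these RNAs substrates of nonsense-mediated decay (NMD). Several also open with a pyrimidine tract, the 5′TOP element by which growth signals control translation of the ribosomal protein mRNAs.

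Library totals ran from 14369525 to 16685719 counts. SRSF11 itself was at 87.5, 84.1 and 87.3 CPM (counts per 1000000 counts of the library, scaled by edgeR's TMM factors) in si-NC replicates 1, 2 and 3 and at 50.4, 48.5 and 49.4 in si-SRSF11 replicates 1, 2 and 3. The groups did not overlap and SRSF11 was left at 57.2% of its control level (log2 fold change -0.81, SE 0.054, edgeR adjusted p = 6.1e-10). Of 11 colorectal epithelial markers, all had counts, although GPA33 and CEACAM5 stayed at or under 1.38 CPM, and their summed level was 6020 to 6370 CPM in si-NC and 6130 to 6510 CPM in si-SRSF11. The 11 markers of other cell types summed to 21.1 to 24.8 CPM in si-NC and 25.6 to 31.1 CPM in si-SRSF11. PTPRC, the common marker of white blood cells, was at 0, and 4 of the 11 passed the filter. The intestinal transcription factors CDX2 and CDX1 rose by 0.40 (SE 0.075, edgeR adjusted p = 0.00038) and 0.31 (SE 0.065, edgeR adjusted p = 0.0012) on the log2 scale, and PDGFRB, a fibroblast receptor, by 0.70 (SE 0.12, edgeR adjusted p = 0.00023). The part of these markers in the results below was not tested.

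Some snoRNA hosts were lower and others higher in si-SRSF11 than in si-NC. Loss of SRSF11 and other effects of the siRNA cannot be told apart in this design. GAS5, SNHG5, SNHG16, ZFAS1, SNHG1, SNHG15 and SNHG7 fell, and SNHG19, SNHG3, SNHG6, DANCR and SNHG4 rose. The called hosts were left at 74.6% to 131% of their control level, with log2 fold changes of -0.42 to 0.39. Thus 12 of the 22 tested hosts (54.5%) had an adjusted p under 0.05 in edgeR's quasi-likelihood test, 5 higher and 7 lower, beside 24.6% of all tested genes, 13.2% higher and 11.4% lower. The median log2 fold change was 0.01 over the 22 hosts and 0.00 over all tested genes.

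Abundant genes are called more often at equal change. Among genes with a mean of at least 4 on the log2 CPM scale, 12 of 16 hosts (75%) were called, beside 34.2% of all such genes and 42.7% of the other noncoding genes at that level. The other 1960 tested noncoding genes of all levels were called in 11.8% of cases, 40 higher and 191 lower, with a median log2 fold change of -0.15. Lower calls thus made up 7 of 12 calls among the hosts and 191 of 231 calls in that class, a difference that was not tested. Expression values of the groups did not overlap for 11 of 22 hosts (50%), 5 above and 6 below, beside 38.8% of all tested genes. In bulk RNA, fewer cells that express a gene and less of its RNA per cell cannot be told apart.

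**Figure D1:**
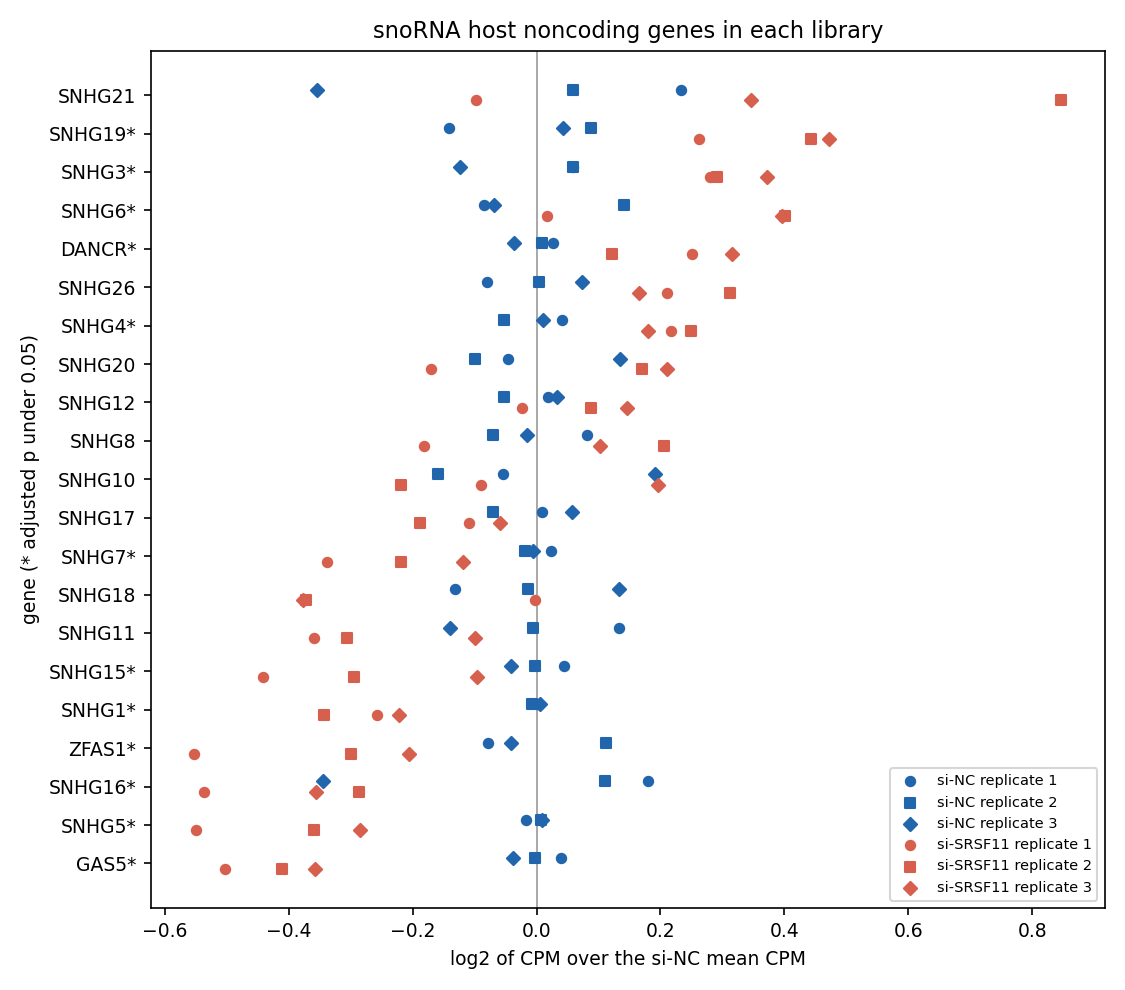
Level of each tested host in each of the 6 libraries, as the log2 of its CPM over the mean CPM of the 3 si-NC libraries (x axis), with genes ordered by fold change (y axis) and SNHG9 left out for its low counts. Blue marks are si-NC and red marks si-SRSF11, and asterisks mark the 12 genes with an adjusted p under 0.05. The 3 red marks lie left of all blue marks for 6 genes, GAS5 at the bottom among them, and right of all blue marks for 5 genes.

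Some hosts open with a pyrimidine tract, as ribosomal protein mRNAs do. A tract was counted where a transcript of GENCODE 29 opens with C and at least 4 more C or T bases, read on the transcript's own strand. Of the hosts, 13 of 22 had such a transcript (59.1%), as did 65 of 77 ribosomal protein genes (84.4%), 2411 of 15772 tested genes that are no members (15.3%) and 118 of 1780 other lincRNA, antisense and processed transcript genes (6.63%). A gene with more annotated transcripts has more chances to hold one. Counted by transcript, the tract opened 31 of 211 host transcripts (14.7%), 20.9% of the transcripts of ribosomal protein genes and 2.58% of the 127343 transcripts of tested genes that are no members. It opened 6 of 29 annotated GAS5 transcripts, 3 of 23 of SNHG5 and 1 of 25 of SNHG1, and 0 of those of the called hosts SNHG7, SNHG15 and DANCR. The 5′ ends below are from GENCODE transcripts on GRCh38, with the tract in capitals. The first 4 genes fell and the last 3 rose in si-SRSF11.
GAS5, transcript 210, chr1:173867960-173867989, minus strand: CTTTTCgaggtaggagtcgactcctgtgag
SNHG5, transcript 202, chr6:85678694-85678733, minus strand: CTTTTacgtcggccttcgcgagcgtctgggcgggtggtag
SNHG16, transcript 204, chr17:76557769-76557808, plus strand: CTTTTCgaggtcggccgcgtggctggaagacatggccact
ZFAS1, transcript 201, chr20:49278642-49278681, plus strand: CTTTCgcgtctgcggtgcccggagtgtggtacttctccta
SNHG19, transcript 201, chr16:2155319-2155358, minus strand: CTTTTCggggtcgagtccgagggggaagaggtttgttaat
SNHG3, transcript 203, chr1:28506043-28506082, plus strand: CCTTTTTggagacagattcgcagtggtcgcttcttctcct
SNHG4, transcript 201, chr5:139274102-139274141, plus strand: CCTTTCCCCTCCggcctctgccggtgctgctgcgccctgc
The first 10 bases of GAS5 and SNHG16, which fell, are identical, and those of SNHG19, which rose, differ from them at 1 position. These are the closest of the starts compared, and every other pair differed at 2 to 9 positions. The GAS5 start lies 893 bases inside the annotated 5′ end of its gene, and the ZFAS1 start 464 bases inside that of ZFAS1. Of the 13 hosts with a tract, 4 were higher, 5 lower and 4 had no call, and of the 9 without one, 1 was higher, 2 lower and 6 had no call. The tract was thus present on both sides. Whether these ends are the ones used in LoVo cells was not measured, since gene counts hold no start sites.

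The snoRNAs carried by the hosts belong to both families on both sides too. The sequences below, from GENCODE snoRNA genes on GRCh38, are given for hosts that fell (ZFAS1, SNHG5 and SNHG15) and for hosts that rose (SNHG19 and DANCR). In box C/D snoRNAs the capitals mark the C box (TGATGA, taken within the first bases) and the D box (CTGA, taken near the 3′ end), and in box H/ACA snoRNAs the H box (ANANNA) and the closing ACA.
SNORD12C in ZFAS1, chr20:49278940-49279028, plus strand: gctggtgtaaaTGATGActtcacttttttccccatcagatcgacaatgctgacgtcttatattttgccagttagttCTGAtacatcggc
SNORD12B in ZFAS1, chr20:49280319-49280409, plus strand: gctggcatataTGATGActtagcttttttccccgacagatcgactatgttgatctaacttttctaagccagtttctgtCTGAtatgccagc
SNORD50B in SNHG5, chr6:85677589-85677658, minus strand: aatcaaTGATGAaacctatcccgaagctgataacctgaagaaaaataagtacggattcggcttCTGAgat
SNORA9 in SNHG15, chr7:44985378-44985510, minus strand: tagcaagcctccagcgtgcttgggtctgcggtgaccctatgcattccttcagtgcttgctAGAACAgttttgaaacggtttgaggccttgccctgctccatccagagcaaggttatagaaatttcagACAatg
SNORD60 in SNHG19, chr16:2155023-2155105, minus strand: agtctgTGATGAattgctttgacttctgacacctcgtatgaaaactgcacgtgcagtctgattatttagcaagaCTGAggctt
SNORA26 in DANCR, chr4:52713249-52713370, plus strand: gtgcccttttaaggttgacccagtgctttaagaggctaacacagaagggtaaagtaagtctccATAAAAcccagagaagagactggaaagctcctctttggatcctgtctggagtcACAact
By the RefSeq names of the small RNAs inside each span (GRCh38.p14), 8 tested hosts carry C/D snoRNAs alone (2 higher, 4 lower, 2 with no call) and 9 carry H/ACA snoRNAs alone (3 higher, 2 lower, 4 with no call). GAS5 and SNHG12 carry both families, and SNHG10, SNHG20 and SNHG21 carry 1 scaRNA each. Of the 3 scaRNA hosts 0 were called by edgeR or by DESeq2, and 0 had an unadjusted p under 0.05.

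GAS5 was the host with the most reads. It accumulates when growth stops, is known as a decoy of the glucocorticoid receptor, and holds 11 snoRNAs in its span in RefSeq, 10 of them of the C/D family. GAS5 (ENSG00000234741, chr1:173863900-173868882 of GRCh38, minus strand, a processed transcript) had 5199, 5290 and 5291 counts in si-NC replicates 1 to 3 and 3848, 4261 and 4436 counts in si-SRSF11 replicates 1 to 3. In CPM these were 358, 347 and 339 against 246, 262 and 272. Each si-SRSF11 library was below each si-NC library. GAS5 fell to 74.6% of control (log2 fold change -0.42, SE 0.049, edgeR adjusted p = 1.3e-06), the largest fall among the called hosts in the main fit. SNHG16 fell further without si-NC replicate 3 (-0.53 against -0.44) and without si-SRSF11 replicate 2 (-0.44 against -0.43). GAS5 took 22.9% to 23.4% of all counts on the hosts in si-NC and 18.8% to 19.1% in si-SRSF11.

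The 4 other C/D hosts among those that fell were SNHG5, ZFAS1, SNHG1 and SNHG16. SNHG5, host of SNORD50A and SNORD50B (ENSG00000203875, chr6:85660950-85678748, minus strand), was at 90.3, 91.8 and 91.9 CPM in si-NC and at 62.4, 71.2 and 74.9 CPM in si-SRSF11. The si-NC libraries lay within 2 CPM of each other and all 3 si-SRSF11 libraries were below them. SNHG5 fell by 0.39 on the log2 scale (SE 0.060, edgeR adjusted p = 4.6e-05).

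ZFAS1 (ENSG00000177410, chr20:49278178-49295738, plus strand, annotated as antisense) starts, by its annotated span, within the 5′ end of ZNFX1 and carries the SNORD12 family printed above. It was at 56.6, 64.6 and 58.1 CPM in si-NC and at 40.7, 48.5 and 51.8 CPM in si-SRSF11. The groups did not overlap, and si-SRSF11 replicate 1 was the lowest library. ZFAS1 fell by 0.34 on the log2 scale (SE 0.075, edgeR adjusted p = 0.0017). With 1 library left out at a time its log2 fold change ran from -0.43 to -0.26 and passed the threshold in all 6 fits.

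SNHG1, which holds 8 C/D snoRNAs of the SNORD22 and SNORD25 to SNORD31 series, was the second most abundant host by reads (ENSG00000255717, chr11:62851988-62855914, minus strand). Its level was 226, 225 and 227 CPM in si-NC and 189, 178 and 194 CPM in si-SRSF11. The si-NC libraries were nearly equal and the si-SRSF11 libraries were all lower. SNHG1 was left at 82.8% of control (log2 fold change -0.27, SE 0.048, edgeR adjusted p = 0.00020).

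SNHG16, host of SNORD1A, SNORD1B and SNORD1C (ENSG00000163597, chr17:76557766-76565348, plus strand), was at 74.1, 70.7 and 51.5 CPM in si-NC and at 45.1, 53.6 and 51.1 CPM in si-SRSF11. Here the groups overlapped, because si-NC replicate 3 lay with the si-SRSF11 libraries. SNHG16 was lower by a log2 fold change of -0.39 (SE 0.094, edgeR adjusted p = 0.0041). The call was lost in DESeq2 (adjusted p = 0.093) and when si-NC replicate 1 was left out of edgeR's fit (adjusted p = 0.051).

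The remaining 2 hosts that fell carry H/ACA snoRNAs. SNHG15, host of SNORA9 (ENSG00000232956, chr7:44983023-44986961, minus strand), was at 63.1, 61.1 and 59.5 CPM in si-NC and at 45.1, 49.9 and 57.3 CPM in si-SRSF11. The groups did not overlap, though si-SRSF11 replicate 3 came close to the controls. SNHG15 fell by 0.27 on the log2 scale (SE 0.071, edgeR adjusted p = 0.0075).

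SNHG7, host of SNORA17A and SNORA17B (ENSG00000233016, chr9:136721366-136728184, minus strand), was at 75.3, 73.2 and 73.8 CPM in si-NC and at 58.6, 63.7 and 68.3 CPM in si-SRSF11. All 3 si-SRSF11 libraries were lower. SNHG7 was left at 85.8% of control (log2 fold change -0.22, SE 0.059, edgeR adjusted p = 0.0081).

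Among the hosts that rose, SNHG19 had the largest log2 fold change in the main fit. Without si-NC replicate 1, SNHG3 was ahead of it (0.35 against 0.33). SNHG19 is a short gene with a single annotated transcript and SNORD60 in its intron (ENSG00000260260, chr16:2154797-2155358, minus strand, exon length 342 bases). It was at 22.3, 26.1 and 25.3 CPM in si-NC and at 29.5, 33.4 and 34.1 CPM in si-SRSF11. Each si-SRSF11 library was above each control. SNHG19 reached 131% of control (log2 fold change 0.39, SE 0.083, edgeR adjusted p = 0.0012), and no exon base of SNHG19 is shared with another gene.

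The 3 hosts of H/ACA snoRNAs that rose were SNHG3, DANCR and SNHG4. SNHG3 holds SNORA73A and SNORA73B, the U17 snoRNAs needed for processing of the ribosomal RNA precursor (ENSG00000242125, chr1:28505980-28510892, plus strand). It was at 67.9, 67.8 and 59.8 CPM in si-NC and at 79.1, 79.7 and 84.4 CPM in si-SRSF11. The groups were well apart. SNHG3 rose by 0.32 on the log2 scale (SE 0.059, edgeR adjusted p = 0.00041).

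DANCR, known for holding back differentiation of progenitor cells and host of SNORA26 (ENSG00000226950, chr4:52712404-52720351, plus strand), was at 63.7, 62.9 and 60.9 CPM in si-NC and at 74.4, 68.0 and 77.8 CPM in si-SRSF11. All si-SRSF11 libraries were above the controls. DANCR reached 117% of control (log2 fold change 0.23, SE 0.059, edgeR adjusted p = 0.0055).

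SNHG4 (ENSG00000281398, chr5:139274102-139284899, plus strand) is a host of H/ACA snoRNAs. It was at 53.9, 50.5 and 52.7 CPM in si-NC and at 60.9, 62.3 and 59.3 CPM in si-SRSF11. The groups did not overlap. The log2 fold change of SNHG4 was 0.22 (SE 0.057, edgeR adjusted p = 0.0079).

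SNHG6 holds a C/D snoRNA, SNORD87 (ENSG00000245910, minus strand of chromosome 8, 66921684 to 66926398). It was at 107, 125 and 108 CPM in si-NC and at 114, 149 and 149 CPM in si-SRSF11. The groups overlapped, since si-SRSF11 replicate 1 was below si-NC replicate 2. SNHG6 was higher by a log2 fold change of 0.28 (SE 0.077, edgeR adjusted p = 0.0093). The call was lost in DESeq2 (adjusted p = 0.15) and in edgeR's fit without si-NC replicate 1 (0.066), si-NC replicate 3 (0.051) or si-SRSF11 replicate 2 (0.068).

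The other 10 tested hosts had no call. SNHG8, host of SNORA24, was at 114, 103 and 107 CPM in si-NC and at 95.0, 124 and 116 CPM in si-SRSF11, and the groups overlapped. Its log2 fold change was 0.05 (95% interval -0.08 to 0.19), and without si-SRSF11 replicate 1 it was 0.15 with an edgeR adjusted p of 0.046. SNHG12 differed by 0.07 (95% interval -0.08 to 0.23), SNHG20 by 0.08 (-0.21 to 0.37) and SNHG10 by -0.03 (-0.35 to 0.30).

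SNHG17 and SNHG11, hosts of SNORA71 relatives on chromosome 20, had log2 fold changes of -0.12 (95% interval -0.23 to -0.01) and -0.25 (-0.44 to -0.06). Their edgeR adjusted p was 0.13 and 0.063, and both passed the threshold when scaling was by total counts, which moves the median of all genes to -0.03. SNHG11 also passed without si-NC replicate 3 (-0.31, edgeR adjusted p = 0.040) and without si-SRSF11 replicate 3 (-0.34, edgeR adjusted p = 0.017). SNHG18, host of SNORD123, was at -0.24 (-0.52 to 0.03).

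SNHG26, host of SNORD93, stood higher in every si-SRSF11 library, at 5.88 to 6.51 CPM against 4.96 to 5.51 CPM. With 72 to 106 counts a library its log2 fold change of 0.23 had a 95% interval of -0.06 to 0.52 and an edgeR adjusted p of 0.29. SNHG21, with 10 to 24 counts a library, was at 0.42 (-0.32 to 1.16). SNHG9 had 2, 17 and 8 counts in si-NC and 18, 14 and 27 in si-SRSF11, so its log2 fold change of 1.03 (SE 0.47, edgeR adjusted p = 0.12) could not be told from the spread between libraries. With 1 library left out at a time the value of SNHG9 ran from 0.58 without si-NC replicate 1 (edgeR adjusted p = 0.40) to 1.86 without si-NC replicate 2 (edgeR adjusted p = 0.023), and that of SNHG21 from 0.15 without si-SRSF11 replicate 2 to 0.61 without si-SRSF11 replicate 1, with no call.

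Of the 6 members below the filter, SNHG14, the long imprinted transcript over the SNORD116 and SNORD115 clusters, had 2 to 13 counts a library. SNHG25 had 3 to 12, SNHG22 had 2 to 8, and the SNHG28 row annotated as protein-coding had 1 to 8. SNHG27 and the lincRNA row of SNHG28 were at 0 in all 6 libraries, and RefSeq places no snoRNA inside SNHG27 or SNHG28. A difference in these genes was not detectable at this depth.

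Levels per length depend on which exon bases are counted, because reads on bases shared with another gene were mostly left out (described below). Over the union of exons, the CPM per kilobase (RPKM) in si-NC was 117 ± 6.27 (SD, n = 3) for SNHG8, 95.9 ± 2.59 for GAS5, 90.7 ± 8.13 for SNHG6, 71.9 ± 5.91 for SNHG19 and 60.1 ± 0.257 for SNHG1. Over the bases that no other gene shares, a length chosen after the data were seen, CPM per kilobase was 143 ± 12.8 for SNHG6, 136 ± 7.30 for SNHG8, 97.0 ± 2.62 for GAS5, 71.9 ± 5.91 for SNHG19 and 71.0 ± 0.302 for SNHG1. The same 5 genes led on both scales, in another order. Both lengths take in the exons of every annotated transcript, whether or not it is made in LoVo cells. GAS5 has 29 annotated transcripts and 3631 exon bases in a span of 4983. SNHG19 has 1 transcript and 342 exon bases. The order thus depends on the annotation.

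On the unshared bases, SNHG6 and SNHG8 overlapped, both lay above GAS5 in each si-NC library, and SNHG19 and SNHG1 overlapped. ZFAS1 followed at 50.2 ± 3.57 CPM per kilobase (26.6 over all exons), SNHG5 at 33.4 ± 0.327 and DANCR at 31.0 ± 0.700, with no overlap at these steps. SNHG7 was at 24.9, and SNHG17, SNHG16, SNHG3, SNHG15 and SNHG4 lay between 14.1 and 19.5 CPM per kilobase. The remaining 8 hosts were at 8.61 or less, down to SNHG20 at 1.26.

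In si-SRSF11, GAS5 at 72.3 ± 3.64 and SNHG19 at 94.5 ± 7.27 CPM per unshared kilobase stood in the reverse of their si-NC order, without overlap in either group. GAS5 shares 1.16% and SNHG19 none of its exon bases, so both scales gave this reversal. Each order rests on the annotated lengths, while the change of each gene between groups does not. ZFAS1 at 39.5 ± 4.78 and DANCR at 36.5 ± 2.47 overlapped in si-SRSF11.

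**Figure D2:**
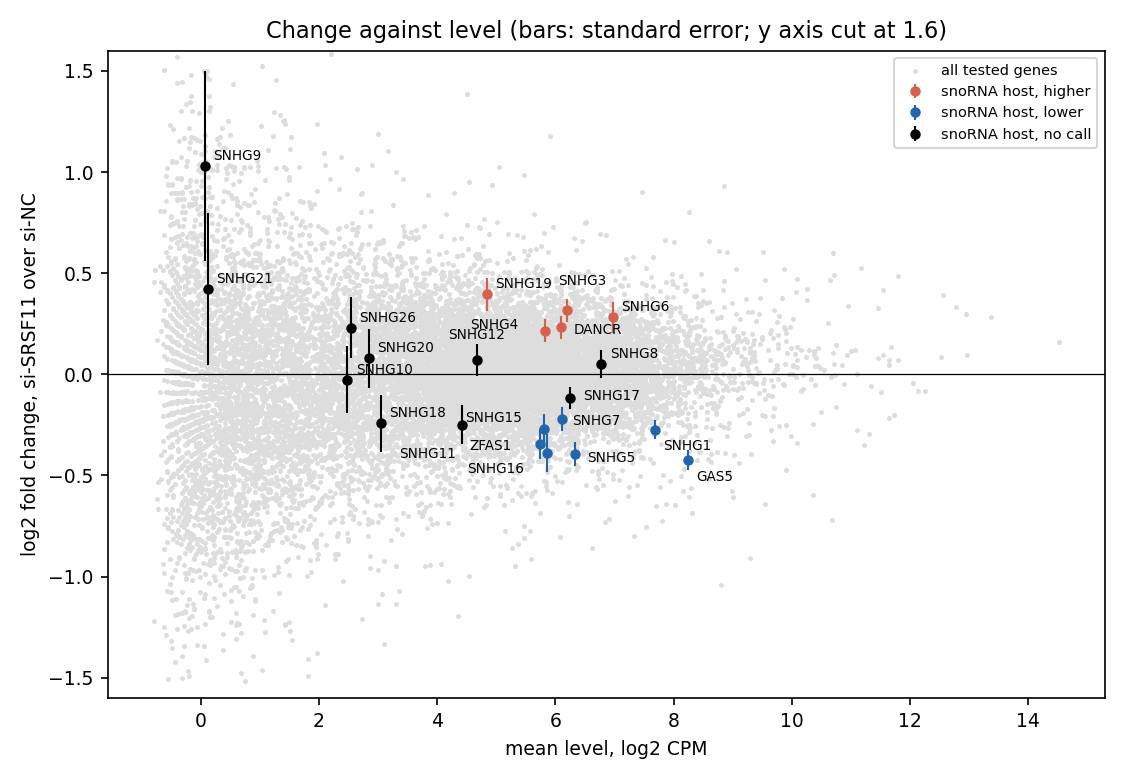
Log2 fold change of si-SRSF11 over si-NC (y axis, cut at 1.6) against mean level in log2 CPM (x axis) for all 15801 tested genes (grey) and the 22 hosts, with bars of 1 standard error. Hosts called higher are red, called lower blue and with no call black; GAS5 and SNHG1, lower, have the highest log2 CPM, and SNHG9 and SNHG21, without a call, the lowest.

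Summed over all 28 rows, the hosts took 1529, 1519 and 1474 CPM in si-NC and 1285, 1387 and 1444 CPM in si-SRSF11. The sum was lower in each si-SRSF11 library, 1372 ± 80.3 against 1507 ± 29.5 CPM (SD, n = 3, exact two-sided permutation p = 0.10, the smallest that 3 against 3 can give, 0.30 adjusted over 3 sums). Without GAS5, a sum chosen after the values were seen, the groups overlapped at 1113 ± 67.2 and 1159 ± 21.2 CPM (n = 3, exact permutation p = 0.40, adjusted 0.40). Of the si-SRSF11 libraries, replicate 1 was the lowest for 14 of the 22 hosts and for 33.8% of all tested genes. Its part in the results was not tested, but without it 6 hosts were called higher and 7 lower.

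Mature snoRNAs have no poly(A) tail and are short, so this assay should read few of them, which was not tested. The count table lists 136 snoRNA and scaRNA rows inside the hosts. It has 0 such rows inside GAS5, for which RefSeq names 11 snoRNAs, and none for SNORD50A of SNHG5. Outside SNHG14, 31 of them overlap an exon of their host and all 31 had 0 counts. Of 21 that lie in introns only, 16 had counts, with at most 215 on 1 row over the 6 libraries. In the whole table, 0 of 157 snoRNA or scaRNA genes fully shared on the same strand had a count, against 30.1% of 767 with no shared base. Reads on shared bases were mostly left out, so the 31 zeros do not tell whether the assay reads these snoRNAs. All 84 rows inside SNHG14 were at 0. Together the rows, which leave out the snoRNAs of GAS5, held 6.48 ± 0.186 CPM in si-NC and 6.99 ± 0.740 CPM in si-SRSF11 (SD, n = 3, exact permutation p = 0.40, adjusted 0.40). The groups overlapped, and what happened to the mature snoRNAs was not measured.

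The way reads were counted bears on these genes because most hosts share exon bases with another gene. Of 710 genes whose exons are fully shared with genes of the opposite strand, 1 had a count (0.141%), and of 1008 fully shared on the same strand 50 had one (4.96%), against 47.7% of genes with no shared base. Reads on shared bases were thus mostly left out, and a host's value rests on its unshared exons. The same counting applies to the gene lists below, where some values are low. EIF4A1 was at 6.15 CPM and RPS10 at 3.42 CPM in si-NC, both without a call. The part of shared bases in such values was not tested. Exons of some annotated transcripts also cover introns of others. They take up 3756 of the 3927 bases spanned by SNHG1 and 3647 of the 3939 spanned by SNHG15. Gene counts therefore cannot tell spliced host RNA from RNA that keeps an intron. The shared part was 46.9% of exon bases in ZFAS1, 36.4% in SNHG6, 33.4% in SNHG16 and 31.4% in SNHG7, and 1.16% in GAS5, 2.50% in SNHG5 and 3.65% in SNHG15.

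Among the genes that share those bases, FAM69B, opposite SNHG7, had a log2 fold change of -0.17 (SE 0.11), MCMDC2, opposite SNHG6, 0.10 (SE 0.32), and RCC1, which shares 5.92% of the exon bases of SNHG3 on the same strand, 0.05 (SE 0.051). None of these 3 was called. SEC14L1, which shares 7.56% of the exon bases of SNHG20 on the same strand, was lower by a log2 fold change of -0.29 (SE 0.050, edgeR adjusted p = 0.00017), while SNHG20 had no call. These 4 genes are named for their overlap, after their values were seen. ZNFX1, described below as a neighbour, shares 11.1% of the exon bases of ZFAS1 on the opposite strand. It was higher by a log2 fold change of 0.19 (SE 0.057, edgeR adjusted p = 0.018). Among the 10 hosts whose exons overlap no gene or only small RNA genes, a split chosen after the data were seen, SNHG19, which overlaps none, was higher and SNHG1, SNHG5 and SNHG15 lower.

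Several hosts start beside a gene on the other strand. SLC3A2, the heavy chain of amino acid transporters, starts 188 bases upstream of SNHG1. It had 11541, 11276 and 12126 counts in si-NC and 10031, 10812 and 11531 in si-SRSF11, which after scaling did not overlap. SLC3A2 fell by 0.20 on the log2 scale (SE 0.047, edgeR adjusted p = 0.0029), the same direction as SNHG1.

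ZNFX1, a helicase that senses RNA, starts 248 bases inside the annotated span of ZFAS1, ahead of the ZFAS1 start printed above. It had 857, 955 and 925 counts in si-NC and 1130, 1070 and 1121 in si-SRSF11, all higher. ZNFX1 rose by 0.19 on the log2 scale (SE 0.057, edgeR adjusted p = 0.018) while ZFAS1 fell by 0.34. ZBTB37 beside GAS5 (0.09, SE 0.11) and TRAF7 beside SNHG19 (0.03, SE 0.052) had no call, nor had SEMA5A beside SNHG18, GLRX5 beside SNHG10 or RPS2 beside SNHG9. The gene beside SNHG16 was below the filter. The pairs themselves were not tested against each other.

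**Figure D3:**
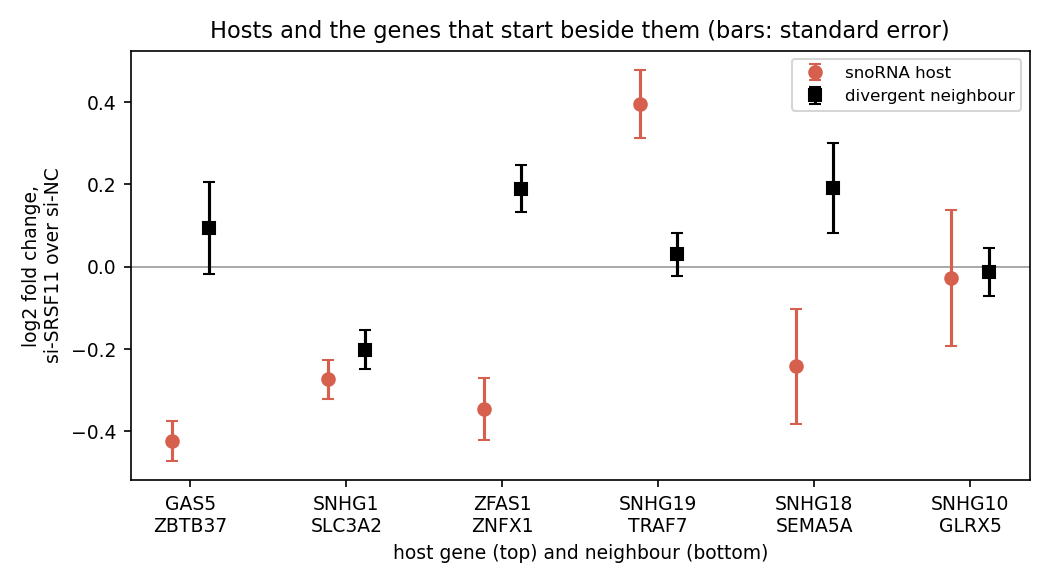
Log2 fold change of si-SRSF11 over si-NC (y axis, with bars of 1 standard error) for 6 hosts (red circles) and the gene on the other strand that starts nearest (black squares); SNHG9 and RPS2 are left out for the low counts of SNHG9. Host and neighbour stand on the same side of 0 in SNHG1 and SLC3A2, SNHG19 and TRAF7, and SNHG10 and GLRX5. They stand on opposite sides in ZFAS1 and ZNFX1, GAS5 and ZBTB37, and SNHG18 and SEMA5A. Only in SNHG1 with SLC3A2 and ZFAS1 with ZNFX1 were both genes called.

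In most annotated host transcripts the first reading frame stops well ahead of the last exon junction, a position on which NMD can act. In 170 of 208 spliced host transcripts of GENCODE (81.7%), the frame of the first ATG stopped over 50 bases upstream of the last exon junction, beside 73.5% of 5681 transcripts of other tested noncoding genes. The median frame of a host transcript was 31 codons. Frames of any length were counted, and medians by host ran from 1 codon in DANCR to 73 in SNHG10, with 8 in SNHG19. Among hosts that fell, such a stop was found in 26 of 29 GAS5 transcripts, 21 of 23 of SNHG5, 22 of 25 of SNHG1, 9 of 10 of ZFAS1, 8 of 10 of SNHG15, 3 of 4 of SNHG7 and 5 of 7 of SNHG16. Among hosts that rose, it was found in the 1 transcript of SNHG19, 4 of 5 of SNHG6, 7 of 9 of SNHG4, 3 of 5 of DANCR and 1 of 3 of SNHG3. The shares of the 2 groups overlap, and their difference was not tested. These are properties of the annotation, and decay rates were not measured.

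Other readouts of that pathway were taken from lists of genes. Of 13 transcripts known to accumulate when NMD is blocked, 12 are mRNAs and 1 is the pseudogene transcript RP9P. In this list 7 were lower, 1 higher and 5 had no call, with a median log2 fold change of -0.14. Calls thus made up 61.5%, beside 24.6% of all tested genes and 34.2% of genes with at least 4 on the log2 CPM scale. GADD45A, a DNA damage and growth arrest gene, fell by 0.60 (SE 0.055, edgeR adjusted p = 4.7e-08) and DDIT3, a stress transcription factor, fell by 0.49 (SE 0.047, edgeR adjusted p = 1.2e-07). Many genes of this list, these 2 among them, also answer to stress.

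Of 15 NMD factors, 4 were lower, 0 higher and 11 had no call in edgeR's test, with a median of 0.00. The share called, 26.7%, was near the 24.6% of all tested genes. At an unadjusted p under 0.05, 1 was higher, and DESeq2 called 0 higher. SMG9, which controls the kinase SMG1, fell by 0.43 (SE 0.061, edgeR adjusted p = 1.9e-05) and SECISBP2, a selenoprotein translation factor, fell by 0.30 (SE 0.060, edgeR adjusted p = 0.00071). Without si-NC replicate 2 or without si-SRSF11 replicate 3, 1 NMD factor was called higher. Of 10 genes of the exon junction complex, 3 were higher and 1 lower, with a median of 0.10. That is 40% called, beside 34.2% of genes with at least 4 on the log2 CPM scale. The 2 smallest adjusted p-values from edgeR in this complex were those of PNN (0.33, SE 0.061, adjusted p = 0.00036) and EIF4A3, the core helicase (0.22, SE 0.048, adjusted p = 0.0017). The 1 lower call was lost without si-NC replicate 2 or si-NC replicate 3, and total-count scaling gave 2.

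Of 20 decapping, 5′ to 3′ decay and exosome genes, 1 was higher and 2 lower, with a median of 0.04. Calls made up 15% of the list, beside 24.6% of all tested genes. The exosome subunits EXOSC6 and EXOSC1 fell by 0.25 (SE 0.064, edgeR adjusted p = 0.0067) and 0.24 (SE 0.064, edgeR adjusted p = 0.0084). The 1 higher call was lost in DESeq2, with total-count scaling, with TMM from protein-coding genes, with no filter beyond 1 count, without si-SRSF11 replicate 2 and without each of the si-NC libraries in turn.

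Of 46 protein-coding snoRNA hosts, 18 were higher, 3 lower and 25 had no call, with a median of 0.09. The share called was 45.7%, beside 24.6% of all tested genes and 34.2% of genes with at least 4 on the log2 CPM scale. Most of the list did not pass the test. HSPA8, a constitutive HSP70 chaperone, rose by 0.66 (SE 0.047, edgeR adjusted p = 1.4e-09) and NCL, the nucleolar protein nucleolin, rose by 0.37 (SE 0.044, edgeR adjusted p = 2.0e-06). The higher calls numbered 10 without si-NC replicate 1, without si-NC replicate 2 and with total-count scaling, and the lower calls 1 without si-NC replicate 1 and 5 without si-SRSF11 replicate 3. Of the 2 further noncoding hosts that could be tested, LRRC75A-AS1 was lower by 0.16 (SE 0.046, edgeR adjusted p = 0.014) and EPB41L4A-AS1 was at -0.18 (SE 0.072). The call of LRRC75A-AS1 was lost without si-NC replicate 1, without si-NC replicate 3 and without si-SRSF11 replicate 2.

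The proteins of the snoRNPs, which bind and stabilize snoRNAs, were read next. Of 16 snoRNP proteins and assembly factors, 6 were higher, 0 lower and 10 had no call in edgeR's test, with a median of 0.11. The share called was 37.5%, beside 24.6% of all tested genes and near the 34.2% of genes with at least 4 on the log2 CPM scale. At an unadjusted p under 0.05, 1 was lower, and DESeq2 called 5 higher and 0 lower. NOLC1, a nucleolar and Cajal body chaperone of snoRNPs, rose by 0.58 (SE 0.046, edgeR adjusted p = 6.4e-09) and NHP2, an H/ACA core protein, rose by 0.37 (SE 0.051, edgeR adjusted p = 1.6e-05).

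Coding genes with a 5′TOP element were read beside the hosts that open with a tract. Of 77 cytosolic ribosomal protein genes, 22 were higher and 0 lower in edgeR's test, with a median of 0.09, led by RPS29 (0.43, SE 0.061, edgeR adjusted p = 1.7e-05) and RPL6 (0.22, SE 0.045, edgeR adjusted p = 0.00086). The share called, 28.6%, was near the 24.6% of all tested genes and below the 34.2% of genes with at least 4 on the log2 CPM scale. At an unadjusted p under 0.05, 0 were lower, and DESeq2 called 15 higher and 0 lower. The higher calls numbered 8 without si-NC replicate 1, 14 without si-NC replicate 2 and 37 without si-SRSF11 replicate 1, and 6 were called lower without si-SRSF11 replicate 3. Of 21 other 5′TOP genes, 7 were higher and 1 lower, with a median of 0.08. Those higher were led by the nuclear import receptor IPO7 (0.31, SE 0.048, edgeR adjusted p = 5.6e-05) and the translation initiation factor EIF3E (0.17, SE 0.046, edgeR adjusted p = 0.010). In this list 38.1% were called, beside the same 24.6% and 34.2%. The higher calls numbered 4 without si-NC replicate 1, 3 without si-NC replicate 2 and 3 without si-NC replicate 3. The lower call was lost without si-NC replicate 1, si-NC replicate 3 or si-SRSF11 replicate 1. Of the hosts with a tract, SNHG19, SNHG3, SNHG6 and SNHG4 were higher and GAS5, SNHG5, SNHG16, SNHG1 and ZFAS1 lower, and their difference from the coding genes was not tested.

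Growth arrest and p53 target genes were read beside GAS5. Of 8, 1 was higher and 3 lower, with a median of -0.15. Calls made up 50% of this small list, beside 24.6% of all tested genes and 34.2% of genes with at least 4 on the log2 CPM scale. GDF15, a secreted stress factor, fell by 0.60 (SE 0.049, edgeR adjusted p = 1.2e-08) and CDKN1A, the cell cycle inhibitor p21, fell by 0.52 (SE 0.052, edgeR adjusted p = 1.9e-07). The 1 higher gene was MDM2, which rose by 0.27 (SE 0.0555, edgeR adjusted p = 0.0010), so the list did not move in 1 direction. Some lists share genes, CDKN1A being also in the list of NMD-sensitive mRNAs and several ribosomal protein genes also snoRNA hosts, so the lists are not independent of each other.

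**Figure D4:**
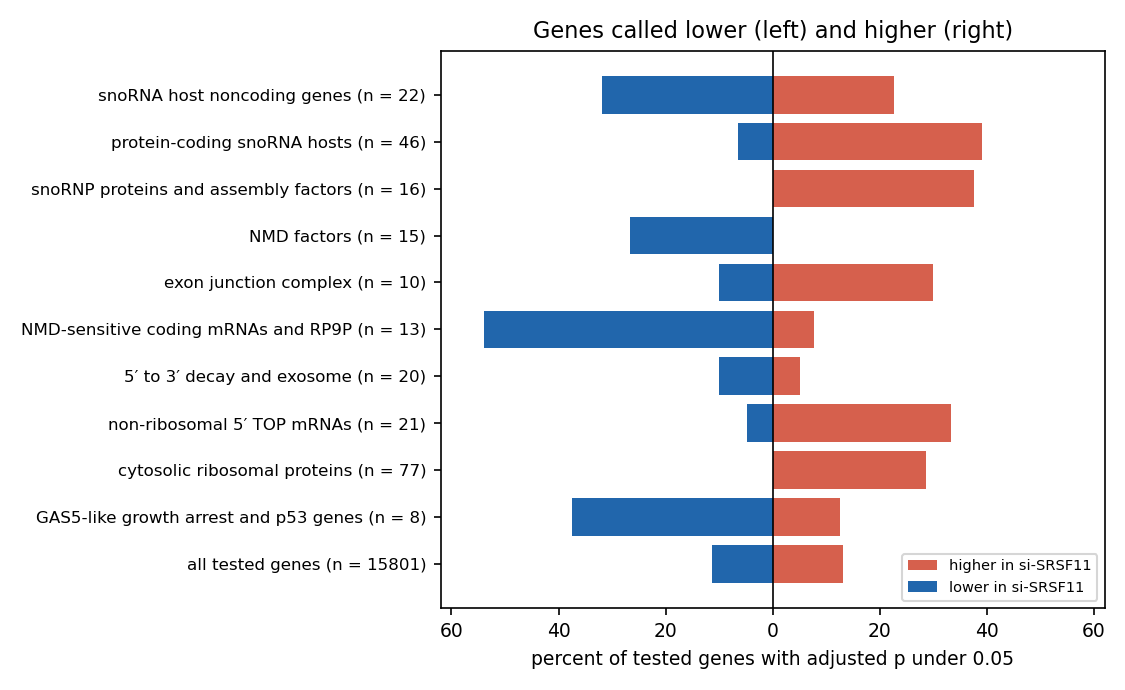
Percent of tested genes with an adjusted p under 0.05 (x axis), lower in si-SRSF11 to the left in blue and higher to the right in red, for the snoRNA hosts, the gene lists with at least 5 tested genes and all tested genes (y axis, with the number tested). The hosts show calls on both sides, the NMD-sensitive mRNAs mainly lower calls, and the calls among the protein-coding hosts, snoRNP proteins and ribosomal proteins are mainly or, in this fit, only higher, with most of their genes not called.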

How the data were processed

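One table of raw gene counts for 6 libraries was deposited, not normalized, with coordinates on GRCh38 (hg38 in the submitters' processing notes). The aligner, the counting program and whether strand was used are not given in the sources used here. All 58735 gene IDs, coordinates and lengths of the table matched GENCODE 29. Samples were grouped by the deposited labels. Genes reaching 10 counts in 3 or more libraries were scaled by TMM and tested with edgeR's quasi-likelihood test (version 4.0.16, R 4.3.3) on condition alone, with Benjamini-Hochberg adjustment over all 15801 tested genes. The fit was tested on simulated data. CPM used library totals times TMM factors, and RPKM the union of exons or, added after the data were seen, the exon bases shared with no other gene. Standard errors were taken from the F statistic, and 95% intervals from them. For sums, an exact permutation test (two-sided) was used. Alternatives were DESeq2 (version 1.42.0), total-count or upper-quartile scaling, TMM from protein-coding genes, other filters, a replicate block, a threshold of 0.01, each library left out, and members without shared exons.

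Members and gene lists were chosen with earlier results of these data known. Named genes were every tested member (library values for those with an adjusted p under 0.05 and for GAS5, ZFAS1, DANCR and SNHG1), SRSF11, divergent neighbours within 2000 bases with an adjusted p under 0.05, and at most 2 genes per list with the smallest adjusted p under 0.05. Other names were chosen after their values were seen. Totals of 14369525 to 16685719 counts limit precision for genes with few counts. Splicing was not analysed here, since gene counts hold no junction reads.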

Additional observations from a re-analysis of the deposited data

How the results depend on the processing

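None of the 12 called hosts changed direction in any of the 13 other fits, and 10 were called in all of them, SNHG16 and SNHG6 being the exceptions. With each library left out in turn, 4 to 6 hosts were called higher and 6 to 8 lower, and the median log2 fold change of the tested hosts ran from -0.074 to 0.062. The median was -0.079 with at least 50 counts in 3 libraries, which leaves out the rarest hosts. The log2 fold change of SNHG10, without a call, ran from -0.16 to 0.08 over the libraries left out and that of SNHG8 from -0.03 to 0.15. DESeq2 gave 4 hosts higher and 6 lower, and an adjusted p under 0.01 gave 5 and 7. For the 3 hosts whose exons no other gene overlaps the counts were 1 higher and 0 lower in edgeR's fit, 0 lower also in DESeq2 and at an unadjusted p under 0.05, with a median of 0.23. For the 10 that overlap no gene or only small RNA genes, these 3 included, they were 1 (SNHG19, as among the 3) and 3, with a median of -0.18. Both sets are small, and their counts are bounded by their size. The replicate block gave 5 higher and 7 lower hosts and 4036 calls over all genes in place of 3885. Deviations from the group means correlated at 0.0151, 0.0362 and 0.0403 between libraries of the same number, each best with its own number. These values are small and depend on each other, so they do not settle whether the numbers mark pairs. The study speaks of paired RNA samples, but nothing says that the numbers mark the pairs. SNHG21 and SNHG9 had no adjusted p in DESeq2.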
